A study of Sus scrofa with 3 samples.

Results

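The miRNAs described here are miR-144, miR-451 and miR-486, known from red cells and their precursors, in pig liver (male animals of the Chinese breed Jinhua). They were found by the name of the representative hairpin in the deposited tables, which gave 25 of 3456 lines of named miRNAs. These lines hold both arms of 3 hairpins, so 6 of the 976 mature miRNAs with a read. Small RNA was sequenced from fetal liver at embryonic day 90 (E90) and from liver after birth, at day 30 (P30d) and year 7 (P7y). At each stage 3 pigs are named in the labels but only 1 library is given, and whether RNA was pooled is not stated. There are thus no replicates, no p-value is given, and every interval is a 95% interval that covers counting error only.

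In mammals the fetal liver is a main site of definitive red cell formation, a role that passes to the bone marrow around birth. The erythroid factor GATA1 drives a single transcript with the hairpins of miR-144 and miR-451, and mice that lack this locus handle oxidative stress in red cells poorly. miR-451 is the known exception among miRNAs: in mouse and zebrafish its short hairpin bypasses Dicer, is cut by Argonaute 2 in the opposite strand, and the long product is then trimmed at its 3′ end. In human and mouse miR-486 is encoded within the erythrocyte ankyrin gene ANK1 and is abundant in red cells and striated muscle.

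The hairpins are printed first because the results turn on which part of each was read. The hairpin of miR-144 lies at chr12:47176951-47177050 on the plus strand, and that of miR-451 starts 61 nt further on, at chr12:47177112-47177182. The hairpin of miR-486 lies at chr17:12191209-12191345 on the minus strand. Coordinates and sequences are those of the deposited tables, with Sscrofa10.2 as the build named in the submitters' processing notes. In the RefSeq table of the later assembly Sscrofa11.1, used for names alone, MIR144 and MIR451 lie within the span of ERAL1 and MIR486-1 within that of ANK1. The deposited lines of miR-486-3p are labelled with a second copy of the hairpin, mir-486-2. Copy numbers were dropped when the members were picked, so copies of miR-486 were not kept apart. Whether the hairpins are exonic or intronic was not analysed here. Capitals mark the part of each arm matched by the representative read at E90, which is the top-scoring read of that arm in the table.
mir-144: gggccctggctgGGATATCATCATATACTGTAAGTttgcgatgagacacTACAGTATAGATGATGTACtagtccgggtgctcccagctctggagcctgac
mir-451: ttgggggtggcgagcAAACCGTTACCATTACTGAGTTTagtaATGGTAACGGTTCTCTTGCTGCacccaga
mir-486: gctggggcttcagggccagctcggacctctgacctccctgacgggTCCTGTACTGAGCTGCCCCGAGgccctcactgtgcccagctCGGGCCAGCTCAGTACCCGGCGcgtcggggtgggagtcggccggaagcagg

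The mature reads at E90 follow, with the seed (bases 2 to 8, which pair with targets) in capitals. The 4 seeds differ, and none of the other miRNAs past the abundance filter had any of them.
miR-144-5p: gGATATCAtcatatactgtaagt
miR-144-3p: tACAGTATagatgatgtac
miR-451-5p: aAACCGTTaccattactgagttt
miR-486-5p: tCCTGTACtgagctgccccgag

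Named miRNAs had 9243601 reads in the E90 library, 3622993 in the P30d library and 9920207 in the P7y library, and levels are given as counts per 1000000 of these (CPM). A count of 0 would allow up to 0.325 CPM at E90, with 0.828 at P30d and 0.302 at P7y. The 6 arms together came to 66941 reads at E90, then 10993 at P30d and 18067 at P7y. This made 0.724% of miRNA reads at E90 (interval 0.719 to 0.730, as for all shares by the exact Clopper-Pearson method), then 0.303% at P30d (0.298 to 0.309) and 0.182% at P7y (0.179 to 0.185), so the joint share was highest in the fetal library. In bulk liver, fewer cells of a type and less of an RNA per cell cannot be told apart.

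miR-451-5p was the most abundant member in all 3 libraries. It stood at 3941 CPM at E90 (interval 3901 to 3982), then 1339 at P30d (1301 to 1377) and 1223 at P7y (1202 to 1245), and ranked 30 at E90, then 57 at P30d and 47 at P7y among all miRNAs. miR-486-5p had 1147 CPM at E90, with 445 at P30d and 406 at P7y. Both were highest at E90. Their P30d and P7y levels were close to each other under CPM alone, since under TMM scaling (edgeR) the P7y levels were higher by 0.86 and 0.85 on the log2 scale. The arms of miR-144 did not share that course. miR-144-5p had 1168 CPM at E90, then 54.7 at P30d and 66.9 at P7y, so it was high in the fetal library alone. miR-144-3p had 978 CPM at E90 and 1195 at P30d but 123 at P7y, so it was low in the P7y library alone. At E90 miR-144-5p and miR-486-5p could not be told apart by counting (ratio 1.019, interval 0.992 to 1.05). Every other neighbouring pair of the 4 abundant arms differed beyond its counting interval within its library.

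**Figure D1:**
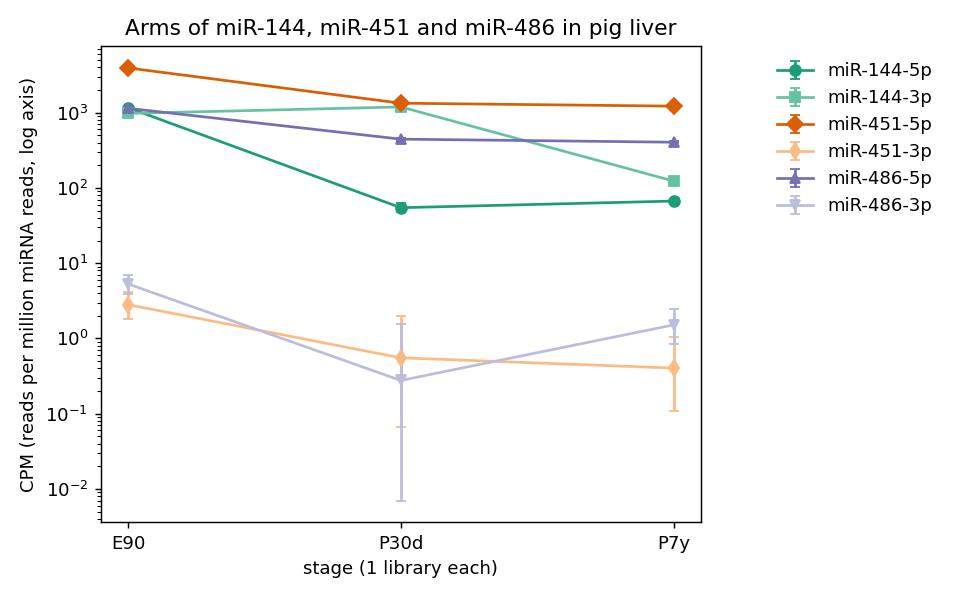
Level of each arm in CPM (log axis) at the 3 stages, 1 library each; bars are exact Poisson 95% intervals of the counts and lines join the same arm. miR-451-5p is on top at every stage, miR-144-5p falls away after E90 (1168, 54.7 and 66.9 CPM) and miR-144-3p at P7y (978, 1195 and 123 CPM), while the opposite arms of miR-451 and miR-486 stay at the bottom.

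Pairs of libraries were compared by their log2 CPM ratio (later over earlier), whose interval is an exact conditional binomial one. To be called, a ratio had to reach 2-fold with an interval off 0. A filter at a mean of 10 CPM kept 324 miRNAs, among them the 4 abundant arms but not miR-451-3p or miR-486-3p. For P30d over E90, 3 of the 4 arms were lower, where 35.5% of all 324 miRNAs were. miR-144-5p had 54.7 CPM at P30d against 1168 at E90, 21.4-fold lower at P30d (log2 ratio -4.42, interval -4.63 to -4.22), in place 16 of 324 from the lowest. miR-451-5p was at -1.56 (-1.60 to -1.51) and miR-486-5p at -1.36 (-1.44 to -1.29). Their calls held under other scalings, but with the representative read alone miR-451-5p was at -0.72, short of 2-fold. miR-144-3p was at 0.29 (0.24 to 0.34) and passed the rule in neither direction. The median of all 324 was -0.11, so the 3 lower arms also lay under the typical miRNA.

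For P7y over P30d, 1 of the 4 arms was lower, where 55.9% of all miRNAs were and their median was -1.36. That arm was miR-144-3p, with 123 CPM at P7y against 1195 at P30d (log2 ratio -3.27, interval -3.37 to -3.18). It stood in place 56 of 324 from the lowest. miR-451-5p was at -0.13 under CPM and 0.86 under TMM scaling, and miR-486-5p at -0.14 under CPM and 0.85 under TMM, so their direction turned with the scaling. miR-144-5p was at 0.29 under CPM and 1.28 under TMM. For P7y over E90, 4 of the 4 arms were lower under CPM, where 50.6% of all miRNAs were and their median was -1.06. miR-144-5p was at -4.13 (place 46 of 324 from the lowest) and miR-144-3p at -2.99 (place 77). Both were also lower by 2-fold or more under TMM. miR-451-5p was at -1.69 and miR-486-5p at -1.50. Under TMM the values of miR-451-5p and miR-486-5p were -0.67 and -0.48, short of 2-fold, so the count for this pair rests on the scaling.

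**Figure D2:**
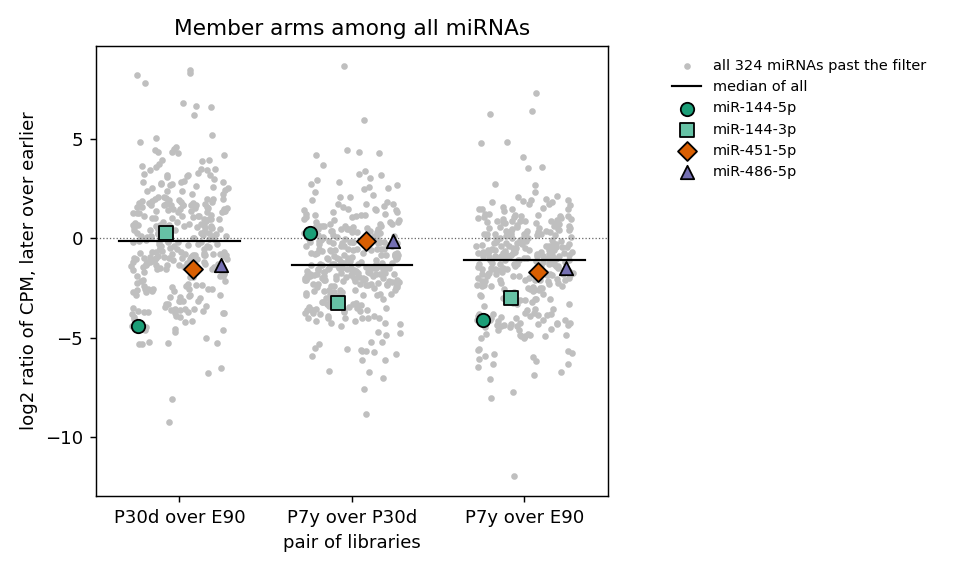
Log2 ratio of CPM, later over earlier, for the 3 pairs of libraries; grey points are all 324 miRNAs past the filter, black lines their medians (-0.11, -1.36 and -1.06) and large symbols the 4 abundant member arms. miR-144-5p lies far below the median for P30d over E90 (-4.42, place 16 of 324 from the lowest). miR-144-3p lies below it for P7y over P30d, but less far out (-3.27, place 56). miR-451-5p and miR-486-5p lie side by side in each pair.

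Ratios between members of 1 library do not depend on scaling. The ratio of miR-451-5p to miR-486-5p reads was 3.44 at E90 (interval 3.36 to 3.51), then 3.005 at P30d (2.84 to 3.18) and 3.02 at P7y (2.91 to 3.13). These miRNAs come from different chromosomes, and their ratio was a little higher at E90 than in both later libraries, whose intervals overlap. For miR-451-5p to miR-144-3p, from hairpins side by side on chromosome 12, the ratio was 4.03 at E90 (3.94 to 4.13), then 1.12 at P30d (1.08 to 1.17) and 9.91 at P7y (9.34 to 10.5). That of miR-451-5p to miR-144-5p was 3.37 at E90, with 24.5 at P30d and 18.3 at P7y. Both ratios within the cluster thus moved far more than that of miR-451-5p to miR-486-5p.

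The more abundant arm of the miR-144 hairpin was 5p at E90 and 3p at P30d and P7y. The 5p arm had 10799 reads and the 3p arm 9038 at E90, so 54.4% of the hairpin's reads were 5p (interval 53.7 to 55.1). At P30d the 5p arm had 198 reads and the 3p arm 4328, a 5p share of 4.37% (3.80 to 5.01). At P7y the 5p arm had 664 reads and the 3p arm 1225, a share of 35.2% (33.0 to 37.4). The log2 ratio of 5p to 3p reads differed by -4.70 for P30d minus E90 (interval -4.92 to -4.50), by 3.56 for P7y minus P30d (3.32 to 3.82) and by -1.14 for P7y minus E90. Shifts of 2-fold or more were common among 181 hairpins that reached 50 reads in every library and had both arms read. Such a shift was seen in 69.1% between E90 and P30d, 76.2% between P30d and P7y and 59.1% between E90 and P7y. No interval off 0 was required here, so shifts that rest on few reads of 1 arm are counted too. That of miR-486 for P7y minus P30d, at -2.05 (interval -7.99 to 0.11), is among them, with 1 3p read at P30d and 15 at P7y. The places by size carry the same limit. By size, the miR-144 shift stood in place 9 of 181 between E90 and P30d, 44 between P30d and P7y and 94 between E90 and P7y.

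**Figure D3:**
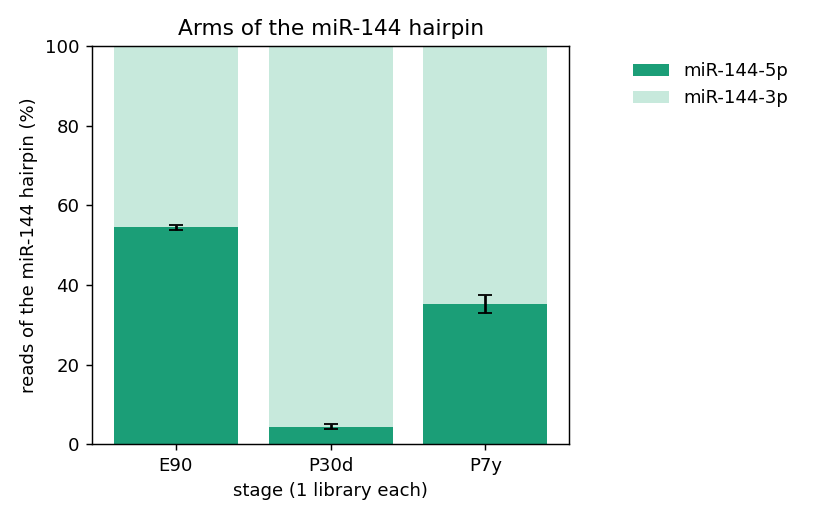
Share of reads of the miR-144 hairpin from its 5p arm (dark) and 3p arm (light) at the 3 stages, 1 library each, in percent; bars are exact Clopper-Pearson 95% intervals. The 5p arm holds 54.4% at E90, then 4.37% at P30d and 35.2% at P7y.

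miR-451 was read almost wholly from its 5p arm, and the estimated mean length of its reads was shorter at each later stage. The 5p arm had 36429 reads against 26 of the 3p arm at E90, 4850 against 2 at P30d and 12136 against 4 at P7y, a 5p share of 99.93%, 99.96% and 99.97% in stage order. In the folding given in the table the hairpin has a loop of 4 nt at its bases 34 to 37, and the representative 5p reads start at base 16. The representative reads are shown because they differ only at the 3′ end; capitals mark the bases past position 18 of the read.
miR-451-5p at E90: aaaccgttaccattactgAGTTT
miR-451-5p at P30d: aaaccgttaccattactgAGTTT
miR-451-5p at P7y: aaaccgttaccattactgAGT

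At E90 and P30d the representative read was 23 nt long and ended at base 38, just past the loop, and at P7y it was 21 nt long and ended at base 36, inside the loop. It held 6928 reads at E90, or 19.0% of the arm (interval 18.6 to 19.4), 1742 at P30d, or 35.9% (34.6 to 37.3), and 3713 at P7y, or 30.6% (29.8 to 31.4). Most reads of miR-451-5p in each library were therefore other variants. The tables list no other variants, but they give the summed base score of all reads of an arm. Divided by the reads and by the score per base of the representative read, this estimates the mean read length, a measure chosen after the data were seen. It assumes that the other reads of an arm have the same score per base. That assumption was not tested for miR-451-5p, most of whose reads are not its representative read.

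The estimated mean length of miR-451-5p was 23.9 nt at E90, with 22.6 nt at P30d and 20.7 nt at P7y. The fetal reads were the longest and the P7y reads the shortest. Of 84 arms with at least 1000 reads in each library, miR-451-5p shortened the most for P30d minus E90 (-1.31 nt) and for P7y minus E90 (-3.26 nt), and was in place 2 for P7y minus P30d (-1.96 nt). For P30d minus E90 and for P7y minus E90, 3.57% of these arms were shorter by 1 nt or more, and 4.76% for P7y minus P30d. Their median difference was 0.024 nt for P30d minus E90, -0.086 nt for P7y minus P30d and -0.057 nt for P7y minus E90. With the median score per base of the library in place of the arm's own, the differences of miR-451-5p were -1.42, -1.88 and -3.30 nt. The 5′ end of its representative read was the same base in all 3 libraries, as it was for miR-144-5p, miR-144-3p and miR-486-5p. Where the other reads of these arms start is not given, so the end at which they were shorter is not known.

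miR-144-3p kept its representative read of 19 nt in all 3 libraries, with 63.4% of the main line's reads at E90, then 47.2% at P30d and 45.7% at P7y. Its estimated mean length was 19.4 nt at E90, with 19.5 nt at P30d and 18.1 nt at P7y, the shortest of all arms with 1000 reads in each of these libraries. The difference of -1.36 nt for P7y minus P30d was in place 4 of the 84 arms from the most shortened. miR-144-5p kept a representative read of 23 nt, with 70.3% of the main line at E90, then 55.6% at P30d and 43.4% at P7y. Its estimated mean length was 22.8, 22.4 and 22.0 nt in stage order, from only 198 reads at P30d. miR-486-5p stayed at 22.3 nt at E90, with 22.4 nt at P30d and 22.4 nt at P7y, so the members differed in this measure.

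**Figure D4:**
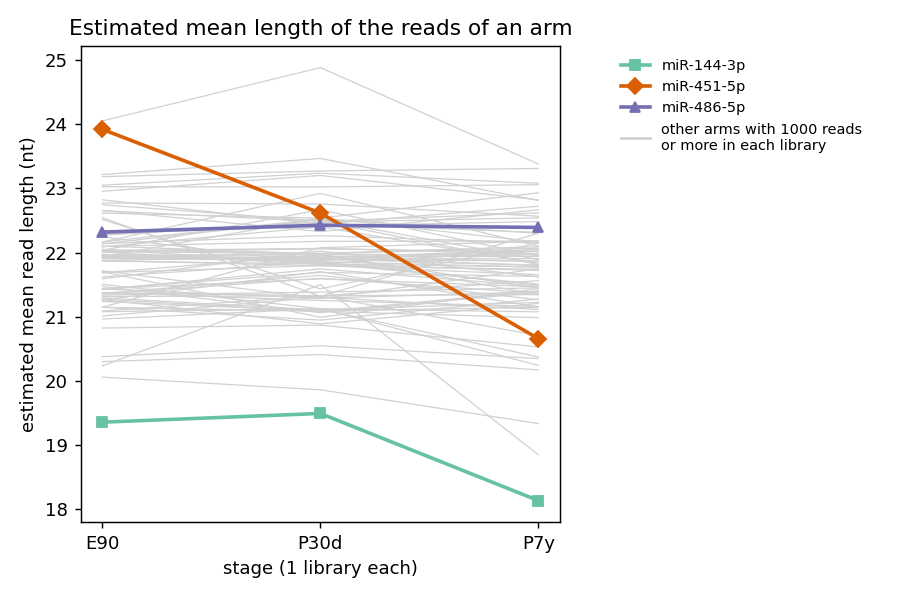
Estimated mean read length in nt of 84 arms with at least 1000 reads in each library, at the 3 stages; grey lines are arms of other miRNAs and coloured lines the members. miR-451-5p crosses most others on its way down (23.9, 22.6 and 20.7 nt), miR-144-3p lies lowest, and miR-486-5p stays level.

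miR-486-5p had a high share of reads with a mismatch in all 3 libraries, and its representative read differed at the 3′ end. Reads with a mismatch to the hairpin were 5113 of 10600 at E90, or 48.2% (interval 47.3 to 49.2), 997 of 1614 at P30d, or 61.8% (59.4 to 64.2), and 2358 of 4023 at P7y, or 58.6% (57.1 to 60.1). In the main line of each arm with at least 1000 reads, the median share was 10.6% at E90, then 10.02% at P30d and 14.7% at P7y. There miR-486-5p was in place 5 of 136 arms at E90, 4 of 105 at P30d and 2 of 103 at P7y from the highest. miR-451-5p, by contrast, had mismatches in 3.08% of reads at E90, with 4.70% at P30d and 2.86% at P7y, and miR-144-3p in 1.43%, 2.89% and 1.80%, below the median in each library. The representative reads of the main line and of a rarer line are shown because their tails differ between libraries; capitals mark bases that the hairpin does not hold, where it goes on with GC.
miR-486-5p main line at E90: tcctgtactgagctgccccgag
miR-486-5p main line at P30d: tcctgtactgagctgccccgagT
miR-486-5p main line at P7y: tcctgtactgagctgccccgagA
miR-486-5p rarer line at E90 and P30d: tcctgtactgagctgccccgagTT
miR-486-5p rarer line at P7y: tcctgtactgagctgccccgagAT

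At E90 the representative read matched the hairpin in full and held 4436 of 10460 reads of the main line, or 42.4% (41.5 to 43.4). At P30d the representative read had a T added and held 546 of 1550 reads, or 35.2% (32.8 to 37.7). At P7y it had an A added and held 1495 of 3964, or 37.7% (36.2 to 39.2). The rarer lines are filed under miR-486-5p of other mammals, the read with TT under another species than the read with AT. The line with TT had 134 reads at E90 and 49 at P30d, and the line with AT 59 reads at P7y. A further line, whose read has a matched G before an added T, had 6 reads at E90 and 15 at P30d. Where the other mismatches of miR-486-5p lie is not given in the tables. Of the 84 arms read 1000 times or more in each library, 53 had the same representative read in all 3 libraries and 78 the same first 15 bases, so miR-451-5p and miR-486-5p are among the arms whose representative read differed.

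**Figure D5:**
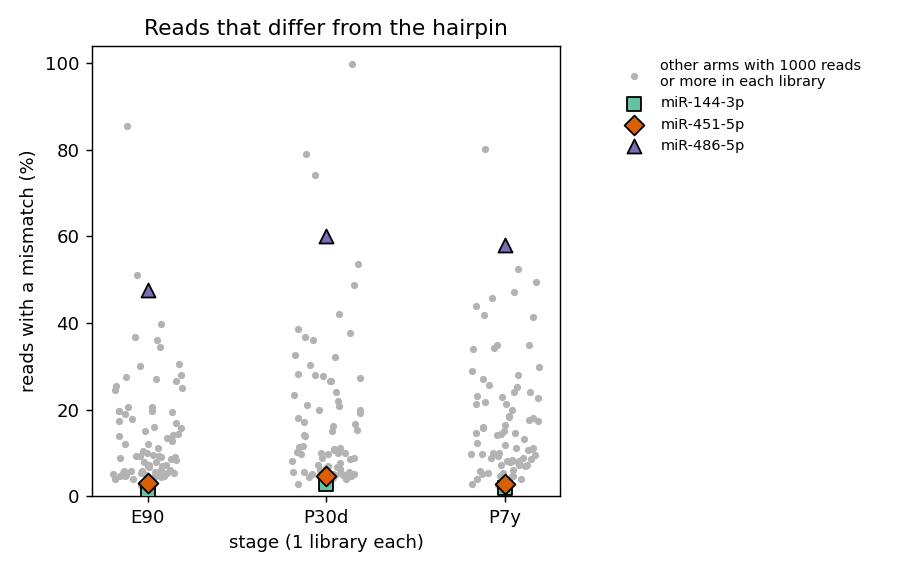
Share of reads with a mismatch in percent, for the main line of the 84 arms with at least 1000 reads in each library, by stage; grey points are other arms and large symbols the members. miR-486-5p lies near the top in each library, and miR-451-5p and miR-144-3p lie near the bottom.

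The opposite arms of miR-451 and miR-486 were rare. miR-486-3p had 49 reads at E90, then 1 at P30d and 15 at P7y, or 5.30, 0.276 and 1.51 CPM. miR-451-3p had 26, 2 and 4 reads, or 2.81, 0.552 and 0.403 CPM. Both were most frequent at E90. The representative read of miR-451-3p started at base 43 of the hairpin at E90 and P7y, whereas at P30d it was a single read from base 36, a position that the representative 5p reads also covered. With so few reads, the P30d and P7y values of either arm did not differ beyond counting error.

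The profiles of the members were compared over the 3 libraries by the distance between log2(CPM + 1) values, each centred on its own mean. miR-451-5p and miR-486-5p were 0.157 apart, whereas the arms of miR-144 were 3.45 apart and miR-451-5p lay 2.23 from miR-144-3p and 2.17 from miR-144-5p. Among 174 other miRNAs averaging 100 CPM or more, the nearest to miR-486-5p were miR-340-5p (0.0434), miR-19b-3p (0.305) and miR-6243-5p (0.345). Those nearest to miR-451-5p were miR-340-5p (0.199), miR-6243-5p (0.232) and miR-7-5p (0.296). Those nearest to miR-144-5p were miR-183-5p (0.523), miR-500-3p (0.612) and miR-500-5p (0.845), and those nearest to miR-144-3p were miR-874-3p (0.343), miR-2320-5p (0.373) and miR-93-5p (0.714). With 3 points per profile, these distances are a description only.

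Other miRNAs linked to red cells and their precursors, 19 in a list that leaves out the members, were taken by their more abundant arm. For P30d over E90, 4 were higher, where 33.3% of all miRNAs were, 8 were lower, where 35.5% of all were, and 7 neither, with a median of -0.83 against -0.11 for all. miR-183-5p (32.6 CPM at P30d against 421 at E90), miR-182-5p (52.2 against 469) and miR-223-3p, a miRNA of myeloid cells (50.2 against 296), were lower at P30d. miR-210-3p, a miRNA of hypoxia (8.28 against 80.8), and miR-96-5p (23.5 against 172) were lower as well. miR-103-3p (952 against 7375), miR-25-3p (1197 against 3338) and miR-221-3p, which represses the receptor KIT (1489 against 3567), were lower too. The higher ones included miR-16-5p, abundant in red cells (8716 CPM at P30d against 2207 at E90), miR-22-3p (15239 against 2266) and miR-24-3p (6333 against 2486). The other was miR-150-5p, a lymphocyte miRNA (118 CPM at P30d against 5.95 at E90). miR-15a-5p (log2 ratio -0.26), miR-92a-3p (-0.46), miR-363-3p (-0.97), miR-107-3p (-0.83), miR-191-5p (0.60), miR-222-3p (0.87) and miR-155-5p (0.55) passed in neither direction.

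For P7y over P30d, 1 of the 19 was higher, where 13.6% of all miRNAs were, and 11 were lower, where 55.9% of all were, with a median of -1.34 against -1.36 for all. Under TMM the split was 4 higher and 4 lower, where 26.9% of all miRNAs were higher and 36.1% lower. The counts lower for P30d over E90 and for P7y over P30d are thus near the shares over all miRNAs. miR-16-5p had 888 CPM at P7y against 8716 at P30d, whereas miR-103-3p, the higher one, had 2837 at P7y against 952. For P7y over E90, 1 was higher, where 12.0% of all miRNAs were, and 14 were lower, where 50.6% of all were, with a median of -1.84 against -1.06 for all. Under TMM 2 were higher and 9 lower, where 27.8% of all miRNAs were higher and 33.3% lower. The higher one under CPM was again miR-150-5p (103 CPM at P7y against 5.95 at E90). miR-25-3p had 1550.0 CPM at P7y against 3338 at E90, and miR-92a-3p, at 9267 against 14799.6, was short of 2-fold. miR-16-5p, which peaked at P30d, thus did not follow miR-451-5p or miR-486-5p.

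Markers of other cells are given beside these levels, as sums that leave out the members. The red cell markers that are no members (miR-16, miR-92a, miR-25 and miR-363), all read, summed to 20965 CPM at E90, with 21014 at P30d and 11799 at P7y. The near level sum at E90 and P30d hides opposite moves. miR-16-5p had 2207 CPM at E90 and 8716 at P30d. By contrast, miR-92a-3p had 14799.6 and 10771.5 CPM, miR-25-3p 3338 and 1197, and miR-363-3p 599 and 305. The 5 leukocyte markers (miR-142, miR-223, miR-150, miR-146a and miR-155), all read, summed to 1037, 4597 and 1116 CPM in stage order, but they did not move together. miR-142-5p had 374, 2956 and 609 CPM, miR-142-3p 195, 190 and 105 CPM, and miR-223-3p 296, 50.2 and 83.1 CPM. The 5p arms of the remaining leukocyte markers went up from E90 to P30d. Their log2 ratios were 4.34 for miR-146a-5p, 4.31 for miR-150-5p and 0.55 for miR-155-5p, the last short of 2-fold. The 3 hepatocyte markers (miR-122, miR-192 and miR-194), all read, summed to 265552, 339343 and 208048 CPM, and these too went different ways. miR-122-5p had 128017, 213802 and 37870 CPM, whereas miR-192-5p had 109466, 109310 and 154836 CPM. Endothelial miR-126 summed to 13297, 11884 and 13568 CPM, but its arms moved in opposite directions from E90 to P30d. miR-126-3p had 11832, 7426 and 10952 CPM in stage order. The log2 ratio for P30d over E90 was -0.67 for miR-126-3p and 1.61 for miR-126-5p. The 5 striated muscle markers, which bear on miR-486, summed to 174, 383 and 83.0 CPM, mostly miR-499-5p with 155, 319 and 51.5 CPM. The muscle-specific miR-206-3p had 1 read at E90 and 0 at P30d and P7y, and miR-1-3p had 3 reads at E90, then 3 at P30d and 31 at P7y. miR-486-5p was highest at E90, whereas the muscle sum was highest at P30d. What part these cells had in the levels of the members was not tested.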

How the data were processed

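Each library has 1 deposited table that lists hairpin arms line by line. Per the file headers, reads were mapped to pig and other mammalian pre-miRNAs of miRBase, which were then mapped to the genome (Sscrofa10.2, per the submitters' processing notes). Per the labels' protocols, RNA of 14 to 40 nt was sequenced. Aligner and trimming: not given in the sources used here.

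Deposited reads of an arm are expected counts (multi-mapped reads are split between hairpins) and were rounded. The deposited numbers of copies of a representative read are counts, and the deposited base score of an arm is summed over its reads. Reads were summed per mature name over the 6 groups of known miRNAs. Of 1007 names, 17 were merged where they shared a read (18 nt or longer) that made up over 50% of each. CPM, intervals and calls are as described above. For arm ratios 0.5 was added to each arm, and a count of 0 was set to 3 reads.

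Named miRNAs were all arms of the members, listed red cell miRNAs whose mean reached 100 CPM, and the 3 nearest profiles. Outside this rule, the other listed red cell miRNAs (miR-150-5p, miR-155-5p, miR-210-3p and miR-96-5p) were named after their values were seen. So were single markers of muscle, leukocytes, hepatocytes and endothelium. Members and lists were chosen with earlier results of these data known. Alternatives were TMM (edgeR 4.0.16), size factors of DESeq2 1.42.0, other totals, other filters, reads without a mismatch and representative reads only. Python 3.11.15, SciPy 1.17.1 and R 4.3.3 were used. The ratio and its call were also run on simulated Poisson counts. These hold counting error alone, so they cannot show how far pigs or libraries of a stage differ. The estimated read length and its 1 nt rule were added after the data were seen. PCR reads without molecular identifiers are not independent molecules.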

Additional observations from a re-analysis of the deposited data

How the results depend on the processing

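Of 102 ratios and arm differences under another setting, 72 kept their direction and their side of the 2-fold rule. The lower level of miR-144-5p at P30d than at E90 kept its call throughout (log2 ratio -4.83 to -4.31), as did that of miR-486-5p (-1.88 to -1.25), that of miR-144-3p at P7y relative to P30d (-3.27 to -1.92) and to E90 (-3.40 to -1.88), and the shifts of the miR-144 arms. For P7y over P30d, miR-451-5p and miR-486-5p turned to 0.86 and 0.85 under TMM, 1.03 and 1.03 under DESeq2 size factors, 0.19 and 0.18 with a total that leaves out the 5 most abundant miRNAs of any library, 0.033 and 0.11 with reads free of mismatches, and 1.23 and 1.22 relative to the median of all miRNAs; miR-486-5p was at 0.075 with representative reads only. miR-144-5p was then at 1.28, 1.46 and 1.65 under TMM, DESeq2 and relative to the median, past 2-fold. For P7y over E90, miR-451-5p and miR-486-5p were short of 2-fold, at -0.67 and -0.48 under TMM, -0.59 and -0.40 under DESeq2, and -0.62 and -0.44 relative to the median. With representative reads only, miR-451-5p was at -0.72 for P30d over E90 and -0.95 for P7y over E90, and miR-144-3p turned to -0.21 for P30d over E90. Where the representative read differs between libraries, this setting compares different reads. For miR-451-5p that is a read of 23 nt at E90 and P30d and of 21 nt at P7y. For miR-486-5p it is a read with no tail at E90, with a T at P30d and with an A at P7y. Such a ratio also carries the share of the representative read in its line. From E90 to P30d that share went from 63.4% to 47.2% for miR-144-3p and from 19.0% to 35.9% for miR-451-5p. Why these shares or the other values differed was not tested. Settings relative to the median and by the library's score per base were chosen after seeing the data.

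Of 19 listed red cell miRNAs, 4 were higher and 4 lower for P7y over P30d under TMM, and 6 and 3 under DESeq2, where 30.2% of all miRNAs were higher and 31.2% lower. For P7y over E90, 2 were higher and 9 lower under either, where 29.0% and 32.1% of all were under DESeq2. At a mean of 100 CPM or more 0 were higher, where 11.8% of all were; 15 of 24 such counts stayed within 1.5 times the count given above. Changes in the arm ratio of miR-451 and miR-486 rest on few 3p reads: that of miR-451 for P7y minus P30d turned to -0.49 with representative reads only, and that of miR-486 for P7y minus E90 to -0.79 with reads free of mismatches and -1.87 with representative reads only. No paired analysis was possible because each stage has 1 library, and none could be left out.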
